A study of Mus musculus with 54 samples.

Results

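Genes that mark the formative epiblast, Fgf5, Pou3f1, Otx2, Foxd3, Pim2 and Car4, were followed through 54 mRNA libraries of mouse cells. They were chosen by name, though with earlier results of these data known. They are 6 of the 20036 genes in the expression table, and all passed the filter that left 14416 genes for testing. The cells were sampled in 3 states: embryonic stem cells (ESC), epiblast-like cells (EpiLC) and, after 2 days of germ cell induction, primordial germ cell-like cells (PGCLC). Each state was taken from 9 lines, with 2 libraries for each of the 27 groups. The lines were wild type (WT), Ovol1KO, Ovol2KO, Ovol3KO, TKO, Cdh1-Tg, Ovol2a-Tg, Ovol2a/2b-Tg and Ovol2b-Tg, all of the strain C57BL/6 X 129/SvJ. Ovol1, Ovol2 and Ovol3 encode related zinc finger repressors, and Cdh1 encodes the epithelial adhesion protein E-cadherin. The name TKO is not spelled out in the labels. For the transgenic lines (Tg) the labels name neither promoter nor clone nor background, so a deletion carried beside the transgene would not be known. Values are TPM, a share of each library's mRNA per transcript length, so fewer cells of a type and less mRNA per cell cannot be told apart.

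Naive pluripotency, the state of the early epiblast and of ESC, is left through a formative state before cells respond to germ cell or germ layer signals. In culture, ESC exposed to activin and fibroblast growth factor become EpiLC, which model that state, and EpiLC exposed to BMP4 give PGCLC. Fgf5 encodes a secreted growth factor that is a classic mark of the epiblast after implantation. Pou3f1 (Oct6) and Otx2 encode homeodomain transcription factors, and Otx2 is known to restrain entry into the germ line. Foxd3 encodes a forkhead factor that acts in the naive to primed transition and later in the neural crest. Pim2 encodes a serine/threonine kinase that favours cell survival, and Car4 encodes a carbonic anhydrase anchored at the cell surface.

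On build GRCm38, which has the coordinates of mm10, Fgf5 lies at chr5:98254184-98277030 on the plus strand and Pim2 at chrX:7878262-7883432 on the plus strand. Otx2 lies at chr14:48657677-48673819 on the minus strand, and Car4 at chr11:84957786-84966044 on the plus strand. Pou3f1 (chr4:124656807-124660655) and Foxd3 (chr4:99656299-99658622) are single-exon genes on the plus strand of chromosome 4. In the GENCODE M21 annotation Pou3f1 overlaps the antisense gene Gm2164 and Otx2 overlaps the antisense gene Otx2os1. The library kit keeps the strand but the counting setting is not given, so reads of those overlaps cannot be assigned with certainty.

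RefSeq start sites on GRCm38.p6 were given for 5 of the 6 genes, all but Pou3f1. Fgf5 and Pim2 are shown because their levels followed each other most closely across the groups. Their exon-free upstream sequence is printed 5′ to 3′ on the gene's strand, with matches to the octamer ATGCAAAT, a motif known to be bound by POU-domain factors, in capitals.
Fgf5, chr5:98253934-98254183: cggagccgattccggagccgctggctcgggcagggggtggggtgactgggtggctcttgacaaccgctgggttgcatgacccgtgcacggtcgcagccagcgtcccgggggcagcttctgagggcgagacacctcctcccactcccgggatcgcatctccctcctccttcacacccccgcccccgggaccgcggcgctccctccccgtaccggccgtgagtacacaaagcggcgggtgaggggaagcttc
Pim2, chrX:7878056-7878261: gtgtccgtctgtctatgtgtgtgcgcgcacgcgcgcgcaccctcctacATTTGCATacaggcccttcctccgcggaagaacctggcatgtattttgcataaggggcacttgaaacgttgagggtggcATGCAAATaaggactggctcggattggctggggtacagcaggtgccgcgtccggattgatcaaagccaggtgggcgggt
The Pim2 stretch held 2 octamers, on opposite strands, at 202 to 195 and at 123 to 116 bases before the start. Both strands were searched, and 1.6% of the 250-base windows before 32851 RefSeq start sites held the octamer, while 32 windows (0.0974%) held at least 2. The Fgf5 stretch held none of the 3 motifs searched, which were this octamer, the OTX core TAATCC and the OVOL core CCGTTA. The OVOL core, present in 2.18% of the windows, was found, among the 5 genes with a start site, only before 1 of 4 Otx2 start sites, 35 to 30 bases upstream. It is shown in capitals within 30 bases, in the orientation of Otx2.
Otx2, chr14:48665127-48665156, minus strand: tgcacgaattgaCCGTTAgatataaggctg
The OTX core, present in 6.25% of the windows, was found once, 211 to 206 bases before the same Otx2 start. These matches are letters in a window and not measured binding sites.

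The table's values could be turned back into whole reads (within 0.01 of a read) for all 17973 genes above 0, which gave 2158379 to 26728538 reads per library. The 2 libraries of a group differed by more than read sampling alone (chi-square per degree of freedom 1.05 to 10.9, median 2.41). The value of 1.05 belongs to Ovol2b-Tg EpiLC, whose 2 libraries hardly differed beyond sampling, and that of 10.9 to Ovol2a-Tg PGCLC, whose trophoblast list summed to 423 and 811 TPM. The labels do not say that the 2 libraries of a group came from separate cultures, so p-values measure the spread between these libraries only. In 8 libraries, of Ovol2a-Tg PGCLC and of all 3 Cdh1-Tg states, the cell type tag differs from the title, and the title was followed. Marker levels in these libraries followed the titles: 5 naive markers (Klf4, Esrrb, Tfcp2l1, Tbx3 and Zfp42) summed to 803, 22.1 and 125 TPM in ESC, EpiLC and PGCLC of Cdh1-Tg, beside 1238, 53.8 and 204 in WT, and 6 primitive streak and mesoderm genes summed to 1192 TPM in Ovol2a-Tg PGCLC and 7.89 in its EpiLC. The targeted genes gave a mixed check of the line labels: Ovol1 in Ovol1KO and Ovol3 in Ovol3KO were not called lower than WT in any state (nearest was Ovol3 in Ovol3KO EpiLC, 5.73 against 11.7 TPM, -0.91 ± 0.15), and Ovol2 in Ovol2KO was higher than WT in EpiLC (34.1 against 11.1 TPM). Ovol1 was at 0.427, 0.692 and 0.671 TPM in WT ESC, EpiLC and PGCLC. On log2(TPM + 1) even a fall to 0 from there is short of the log2 change of 1 that a call required. The lack of an Ovol1 call thus says nothing about the Ovol1KO label. A level over the whole gene does not show whether part of it is deleted, and the line names are used here as labels only. In PGCLC the Ovol2 level was 9.12 TPM in WT, 5.71 in Ovol2KO, 1.18 in TKO, 1.46 in Cdh1-Tg, 320.5 in Ovol2b-Tg, 884 in Ovol2a-Tg and 3296 in Ovol2a/2b-Tg. The low TKO level was not seen in EpiLC, where Ovol2 was at 11.1 TPM in WT, 10.2 in TKO and 10.8 in Cdh1-Tg. In ESC it was at 7.81 TPM in WT, 5.15 in TKO and 1.65 in Cdh1-Tg. Cdh1 was at 563 TPM in Cdh1-Tg PGCLC, beside 316 in WT, 38.8 in Ovol2KO and 20.6 in TKO PGCLC. In ESC and EpiLC it was at 585 and 695 TPM in Cdh1-Tg, 439.7 and 456 in WT, and 583 and 673 in Ovol3KO. The labels name no batch, and one that followed the lines could not be told apart from them.

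**Figure D1:**
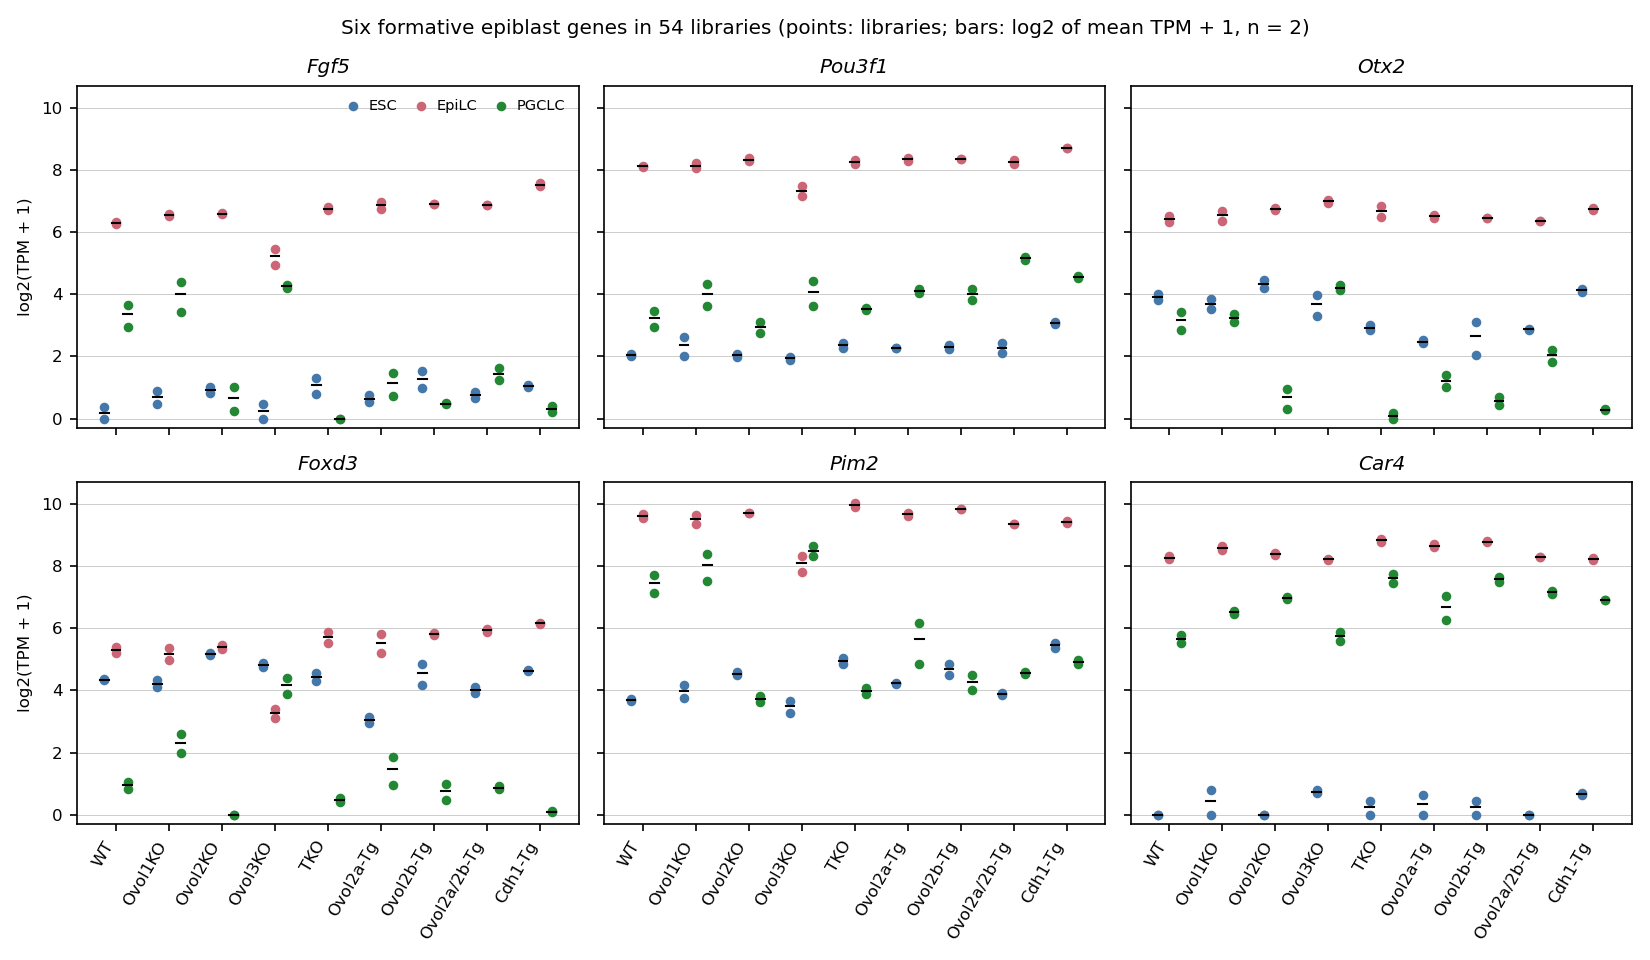
Level of each of the 6 genes in every library, as log2(TPM + 1), by line and cell state. Points are libraries and bars are the means of the 2 libraries. In WT the EpiLC points stand highest in all 6 panels, and Ovol3KO stands apart for Foxd3 and Pim2, with EpiLC at or below PGCLC.

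In WT the 6 genes had their highest mean in EpiLC and were all lower again in PGCLC, by very different amounts. Genes were tested with limma on log2(TPM + 1), which understates the change of scarce genes. Calls required a Benjamini-Hochberg adjusted p under 0.05 over all tested genes and a log2 fold change of 1 or more in size. By this rule 5 of 6 were higher in EpiLC than in ESC, where 9.33% of all tested genes were called higher, and 6 of 6 were lower in PGCLC than in EpiLC, where 7.62% were called lower. The median log2 change of the 6 was 6.00 (all genes -0.01) in the first step and -3.13 (all genes 0.15) in the second. Over all genes 1944 were called higher and 1099 lower in WT PGCLC than in EpiLC, and 1383 and 1518 with quantile normalization, under which the 6 were still all called lower.

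Fgf5 was at 0.290 and 0 TPM in the WT ESC libraries, 79.9 and 75.2 in EpiLC and 6.73 and 11.7 in PGCLC. The growth factor was thus almost absent from ESC, and its PGCLC level was 11.9% of the EpiLC level. Pou3f1 was at 3.01 and 3.23 TPM in ESC, 273 and 279 in EpiLC and 6.72 and 10 in PGCLC. That factor kept 3.03% of its EpiLC level, which left it 1.16 ± 0.20 log2 units above ESC (adjusted p = 3.40e-06), a call that was lost without the second WT PGCLC library and with quantile normalization.

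Otx2 was at 15.0 and 13.2 TPM in WT ESC, 79.7 and 90.9 in EpiLC and 6.29 and 9.87 in PGCLC. It was already present in ESC, and its rise was smaller, at 2.51 ± 0.23 log2 units (SE, adjusted p = 1.63e-11). Foxd3 was at 19.6 and 19.0 TPM in ESC, 36.1 and 41.1 in EpiLC and 1.07 and 0.795 in PGCLC. Its EpiLC and ESC libraries did not overlap, but the difference of 0.96 ± 0.23 was short of the fold threshold, and it passed without the first WT EpiLC library, with quantile normalization and in a limma-voom fit of the recovered reads. Foxd3 fell from EpiLC to PGCLC by 4.36 ± 0.23 on the log2 scale (adjusted p = 7.45e-18), and only 6 reads supported it in each WT PGCLC library.

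Pim2 was at 12.3 and 11.6 TPM in WT ESC, 821 and 745 in EpiLC and 139.7 and 207 in PGCLC. The kinase gene was the most abundant of the 6 in EpiLC and kept 22.1% of that level in PGCLC, the largest share of the 6. Car4 had no read in either WT ESC library, 299 and 317 TPM in EpiLC and 45.0 and 54.4 in PGCLC. Set against 3 reads over the ESC group, Car4 was at least 572-fold higher in EpiLC. The PGCLC thus did not return to the ESC pattern: against ESC, Fgf5, Pou3f1, Pim2 and Car4 were called higher (14.5% of all genes), Foxd3 was called lower (10.8% of all genes), and Otx2 differed by -0.76 ± 0.23.

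Among the other lines the rise into EpiLC was called for nearly every gene, and the fall into PGCLC varied in size. Over 9 lines, 50 of 54 gene and line pairs were called higher in EpiLC than in ESC (10.8% of all genes over the same lines). The 4 exceptions were all Foxd3: in Ovol3KO it fell by 1.55 ± 0.23 on the log2 scale (adjusted p = 6.27e-07), and in WT, Ovol1KO and Ovol2KO it was not called. The loss from EpiLC to PGCLC was called in 51 of 54 pairs (8.37% of all genes), and the 3 exceptions were all in Ovol3KO. With a pseudocount of 0.1 the count was 46, since Car4 lost its call in Cdh1-Tg, Ovol2a/2b-Tg, Ovol2b-Tg, Ovol2KO and TKO. The median PGCLC minus EpiLC change of the 6 genes ran from -1.71 in Ovol3KO to -5.69 in Ovol2KO.

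For each gene the 27 group means were put in order. All 9 EpiLC groups came first for Fgf5, Pou3f1, Otx2 and Car4, and 8 of the first 9 were EpiLC for Foxd3 and Pim2. Of the 26 neighbouring pairs in each order, 16 to 18 had overlapping libraries, so most single steps were within the spread of the libraries. The share of such pairs over all genes was not counted, and with 2 libraries a group a step without overlap is not a test. The steps without overlap for Fgf5 included Cdh1-Tg EpiLC above Ovol2b-Tg EpiLC, WT EpiLC above Ovol3KO EpiLC, and WT PGCLC above Ovol2a/2b-Tg PGCLC.

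In ESC few of the gene and line pairs were called different from WT. Of 48 gene and line pairs 4 were called higher (1.38% of all genes) and 4 lower (2.5% of all genes). Car4 and Fgf5, at 0 and 0.145 TPM in WT ESC, were too low to be called lower in any line. Otx2 made up 3 of the lower calls. It was at 13.2 to 15.0 TPM in WT ESC, 6.26 to 6.39 in Ovol2a/2b-Tg (-1.04 ± 0.28), 3.11 to 7.56 in Ovol2b-Tg (-1.35 ± 0.28) and 4.36 to 4.74 in Ovol2a-Tg (-1.45 ± 0.28, adjusted p = 0.00143). No library of these 3 lines that carry an Ovol2 transgene reached the WT range. TKO ESC, with 6.16 to 7.01 TPM of Otx2, lay as low but just short of the fold threshold. The Ovol2b-Tg call was lost without its first ESC library, and the Ovol2a/2b-Tg call was lost without the first WT library, without either of its own and with quantile normalization.

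Foxd3 was the other gene called lower in ESC, at 6.68 and 7.80 TPM in Ovol2a-Tg against 19.0 to 19.6 in WT (-1.3 ± 0.18, adjusted p = 0.000113). Pim2 was higher than WT in Cdh1-Tg ESC, at 40.6 and 44.8 TPM (1.76 ± 0.17, adjusted p = 2.89e-06), and in TKO ESC, at 28.1 to 32.3 TPM (1.27 ± 0.17, adjusted p = 0.000103). Pou3f1 was higher in Cdh1-Tg ESC (7.43 ± 0.36 TPM, SD, n = 2, against 3.12 ± 0.16), and that call was lost without the first WT or the second Cdh1-Tg library. Fgf5 was called higher in Ovol2b-Tg ESC (0.997 and 1.88 TPM), where 3 and 10 reads supported it, and that call was lost without the second library of either group.

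In EpiLC the 6 genes differed from WT mainly in Ovol3KO. Of 48 pairs 1 was called higher than WT (1.57% of all genes) and 3 lower (1.14%), and the 3 were Fgf5, Foxd3 and Pim2 in Ovol3KO (1.12% of all genes in that line). Pim2 was at 224 and 319 TPM in Ovol3KO EpiLC against 745 to 821 in WT (-1.54 ± 0.12, adjusted p = 5.33e-07). Foxd3 was at 7.61 and 9.63 TPM against 36.1 to 41.1 (-2.05 ± 0.18, adjusted p = 1.50e-06). Fgf5 was at 29.8 and 42.9 TPM against 75.2 to 79.9 (-1.09 ± 0.11, adjusted p = 7.58e-06), a call lost without the first Ovol3KO library. The groups did not overlap for any of these 3 genes, but the share of all genes without overlap was not counted.

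The other 3 genes were not called in Ovol3KO EpiLC. Pou3f1 was at 141 and 178 TPM, lower than WT by an amount short of the fold threshold (-0.80 ± 0.09, adjusted p = 1.10e-05). Otx2 was at 122 and 129.8 TPM, above the 79.7 and 90.9 of WT, again short of the threshold (0.56 ± 0.11, adjusted p = 0.00121). Car4 was at 294 and 301 TPM against 299 and 317. The gene called higher was Fgf5 in Cdh1-Tg EpiLC, at 178 and 189 TPM (1.23 ± 0.11, adjusted p = 8.51e-07). A list of 7 neural genes summed to 13.3 TPM in those cells and 3.01 in WT EpiLC. A sum above WT was not particular to Cdh1-Tg. In EpiLC of the other lines, where Fgf5 was not called higher, it ran from 4.89 TPM in Ovol3KO to 11.4 in TKO. Among these, Ovol2KO was at 7.83 TPM and Ovol2b-Tg at 10.5. The part of this list in these results was not tested. In the remaining EpiLC groups Pim2 ranged from 647 to 1002 TPM, Car4 from 297 to 455 and Otx2 from 80.4 to 106 as group means.

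**Figure D2:**
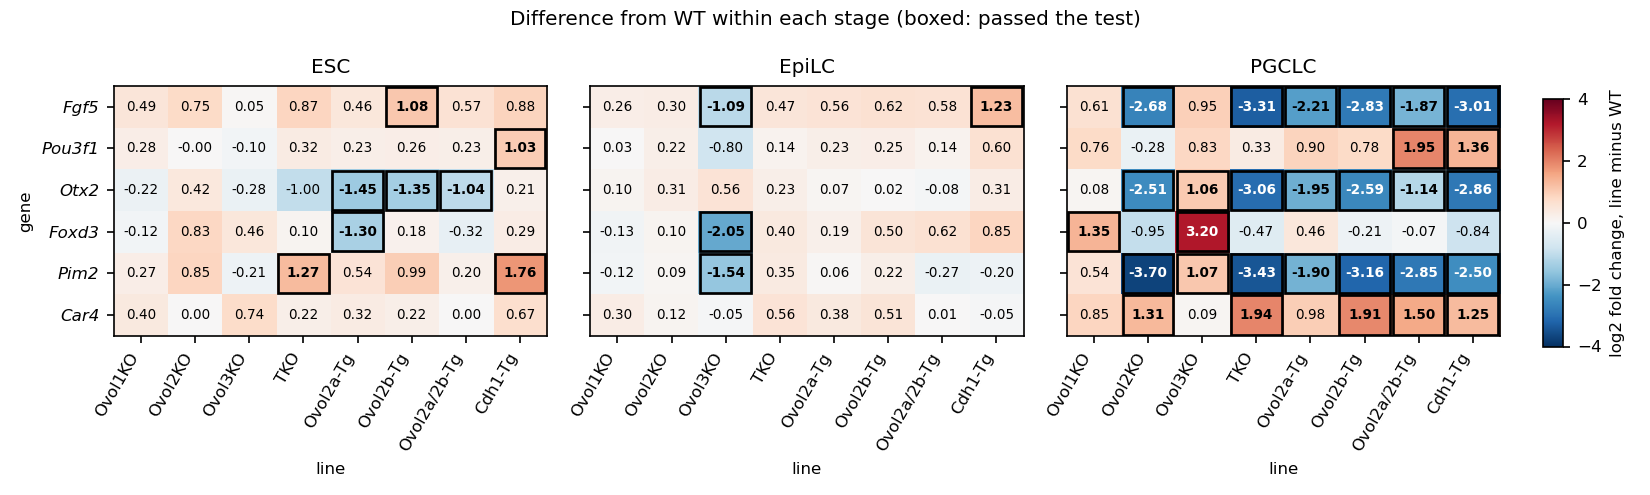
Log2 fold change of each gene in each line against WT, within ESC, EpiLC and PGCLC. Red is higher and blue lower than WT, and boxed cells passed the test. Boxes are few in ESC and EpiLC, and in PGCLC they fill the Fgf5, Otx2 and Pim2 rows for 6 lines in blue and most of the Car4 row in red.

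The lines parted in PGCLC, where 18 of 48 pairs were called lower than WT (3.68% of all genes) and 11 higher (4% of all genes). Without the first WT library 8 were higher, and without the second 15. Fgf5, Otx2 and Pim2 accounted for all 18 lower calls, each in the same 6 lines: Cdh1-Tg, Ovol2a-Tg, Ovol2a/2b-Tg, Ovol2b-Tg, Ovol2KO and TKO. In each of these 3 of the 6 genes were thus lower, where the share of all genes called lower was 1.33% in Ovol2a-Tg, 2.95% in Ovol2a/2b-Tg, 3.14% in Ovol2b-Tg, 4.07% in Ovol2KO, 4.3% in Cdh1-Tg and 4.95% in TKO. Car4 accounted for 5 of the 11 higher calls, in the same lines other than Ovol2a-Tg. The 6 genes thus split within the same libraries. Whether the lower and the higher genes were in the same cells was not measured.

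Marker lists of other cell types also differed between the PGCLC lines, and their part in the results above was not tested. The primitive streak and mesoderm list (6 genes) summed to 1757 TPM in WT PGCLC, 591 to 1293 in the 6 lines with the lower calls and 162 in Ovol3KO. The trophoblast list (4 genes) summed to 152 TPM in WT, 545 to 1422 in the 6 lines and 6.95 in Ovol3KO. That sum was nearly all Hand1 (111 TPM in WT and 1388 in TKO), a gene that early mesoderm also expresses, while Elf5, which defines trophoblast, was at 0 in WT, TKO and 5 other lines. The germ cell list (6 genes, 2 of them also in the naive list) summed to 161 TPM in WT, 69.4 to 113 in the 6 lines and 353 in Ovol3KO. The fibroblast list (7 genes) summed to 19.7 TPM in WT, 103 to 271 in the 6 lines and 8.53 in Ovol3KO. The endoderm list (4 genes) summed to 22.8, 24.3 to 63.0 and 2.80 TPM in the same order.

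Otx2 and Foxd3 are also neural and neural crest genes, and Pou3f1 is also expressed in neural cells. The neural list (7 genes) summed to 1.84 TPM in WT PGCLC, 1.67 to 4.25 in the 6 lines and 4.32 in Ovol3KO, and to 3.01 and 4.89 TPM in WT and Ovol3KO EpiLC. The neural crest list (4 genes) summed to at most 2.57 TPM in any PGCLC group, with Sox10 at 0.291 TPM in WT and 0.305 in Ovol3KO.

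**Figure D3:**
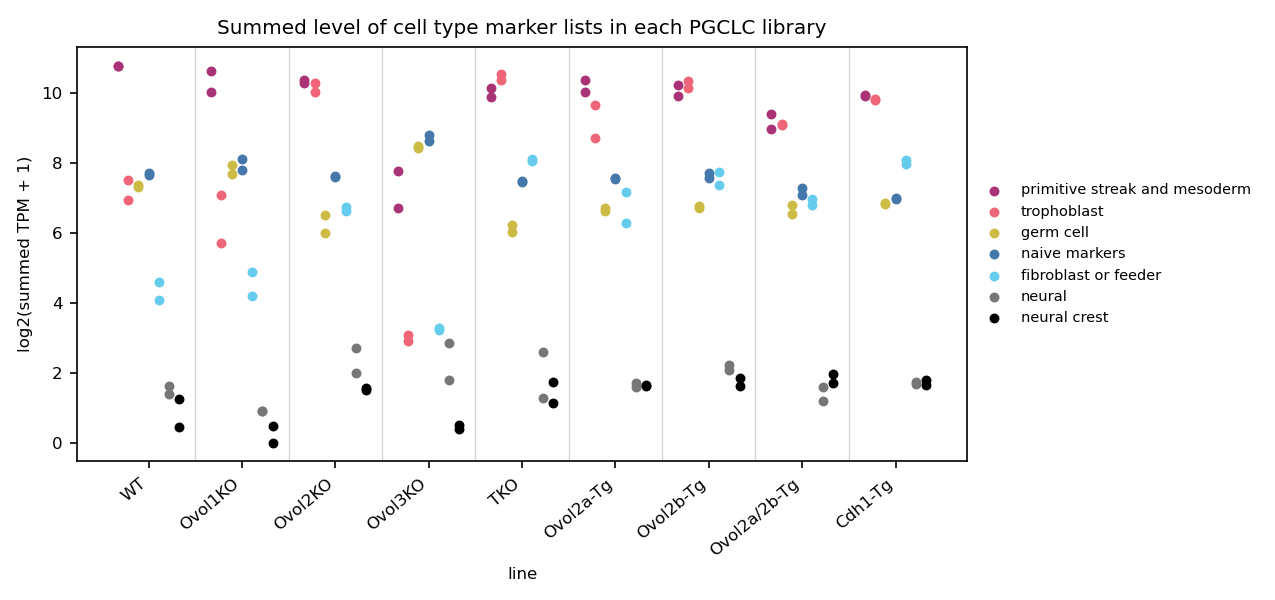
Summed level of 7 marker lists in each PGCLC library, as log2(summed TPM + 1), by line. Each point is a library. The neural crest list lies at 2.57 TPM or less and the neural list at 4.32 or less as group means, and in Ovol3KO the mesoderm and trophoblast lists (162 and 6.95 TPM) lie below those of the other lines and the germ cell list (353 TPM) above.

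Fgf5 was read in neither TKO PGCLC library, while the WT libraries had 40 and 93 reads. Against 3 reads over the TKO group this is at least 54-fold lower than WT. The other 5 lines had Fgf5 at 0.318 and 0.149 TPM in Cdh1-Tg, 0.412 and 0.374 in Ovol2b-Tg, 0.176 and 1.02 in Ovol2KO, 1.78 and 0.639 in Ovol2a-Tg and 1.37 and 2.09 in Ovol2a/2b-Tg. All 12 libraries of these 6 lines lay below the lower WT library (6.73 TPM). The log2 fold changes ran from -1.87 ± 0.35 in Ovol2a/2b-Tg (adjusted p = 0.000746) to -3.31 ± 0.35 in TKO (adjusted p = 3.55e-06). In 4 of the 6 lines the Fgf5 mean in PGCLC was below that of the same line's ESC.

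Otx2 followed the same split. It was at 6.29 and 9.87 TPM in WT PGCLC, 0 and 0.137 in TKO, 0.247 and 0.956 in Ovol2KO, 0.238 and 0.209 in Cdh1-Tg and 0.617 and 0.35 in Ovol2b-Tg. Ovol2a-Tg, with 1.63 and 1.02 TPM, and Ovol2a/2b-Tg, with 2.56 and 3.61 TPM, lay between these and WT. TKO kept 0.0677% of its EpiLC level of Otx2, Ovol2a/2b-Tg 3.84% and WT 9.47%. The Ovol2a/2b-Tg difference was the smallest (-1.14 ± 0.26, adjusted p = 0.00328), and it lost its call without the second WT library, without its own first library and with a pseudocount of 0.1. Differences of the other 5 lines ran from -1.95 ± 0.26 in Ovol2a-Tg (adjusted p = 0.000119) to -3.06 ± 0.26 in TKO (adjusted p = 4.32e-07).

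Pim2, the most abundant of the 3 genes, showed the same split. It was at 139.7 and 207 TPM in WT PGCLC, 13.1 and 11.3 in Ovol2KO, 15.9 and 13.9 in TKO, 15.1 and 21.6 in Ovol2b-Tg, 28.0 and 30.5 in Cdh1-Tg and 23.3 and 22 in Ovol2a/2b-Tg. These lines kept 1.47% to 4.29% of their EpiLC level of Pim2, against 22.1% in WT. Ovol2a-Tg had 71.4 and 28.0 TPM, a wide spread, and still lay below both WT libraries (-1.90 ± 0.37, adjusted p = 0.00456). Ovol2KO gave the largest difference (-3.70 ± 0.37, adjusted p = 1.67e-05).

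Whether each line's difference from WT changed between EpiLC and PGCLC was tested as an interaction. It was called in 31 of 48 gene and line pairs (7.63% of all genes). Fgf5, Otx2 and Pim2 were each called lower in the same 6 lines, with Pim2 from -1.96 ± 0.37 in Ovol2a-Tg to -3.79 ± 0.37 in Ovol2KO. The smallest, Otx2 in Ovol2a/2b-Tg (-1.06 ± 0.33), lost its call in 6 of 18 alternatives, with a pseudocount of 0.1 and without any 1 of 5 libraries: the first WT EpiLC, the second WT PGCLC, either Ovol2a/2b-Tg EpiLC or the first Ovol2a/2b-Tg PGCLC library.

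**Figure D4:**
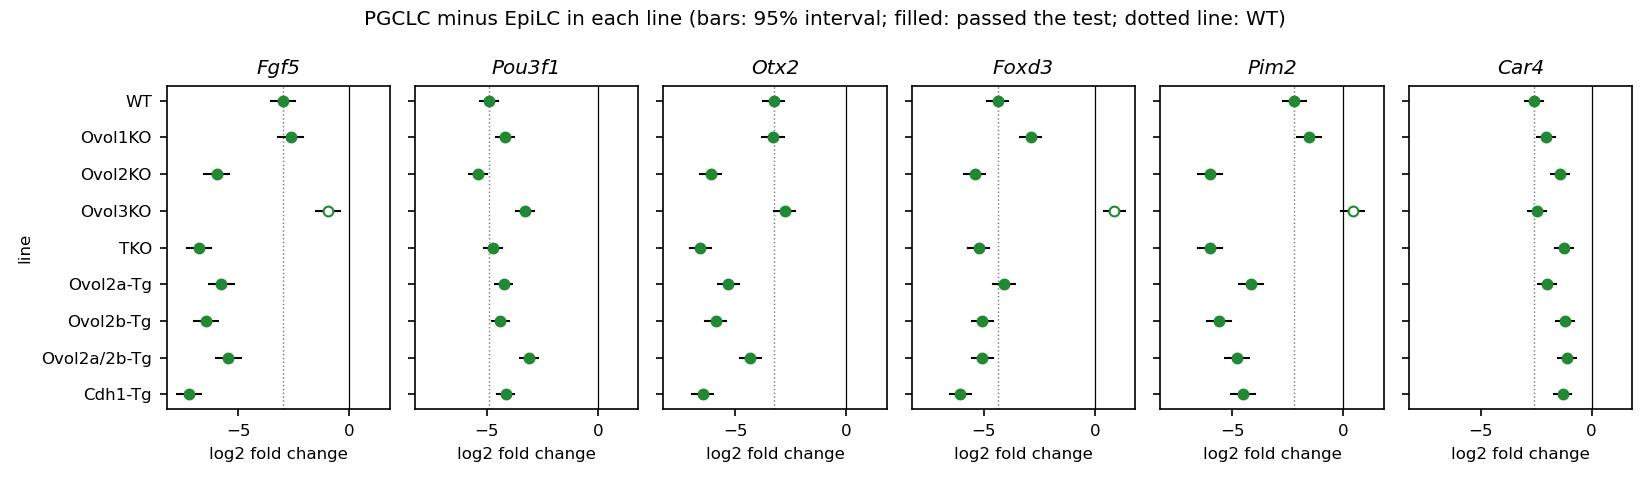
Log2 fold change from EpiLC to PGCLC within each line, for each gene. Points are estimates, bars are 95% intervals, filled points passed the test and the dotted line marks WT. The same 6 lines lie left of WT for Fgf5, Otx2 and Pim2 and right of it for Car4, and Ovol3KO lies to the right for Fgf5, Foxd3 and Pim2.

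Car4 was at 45.0 and 54.4 TPM in WT PGCLC and higher in every library of the same 6 lines. It was at 175 and 214 TPM in TKO (1.94 ± 0.18, adjusted p = 1.76e-06), 202 and 177 in Ovol2b-Tg (1.91 ± 0.18, adjusted p = 3.35e-06) and 138 and 146 in Ovol2a/2b-Tg (1.5 ± 0.18, adjusted p = 2.44e-05). Ovol2KO had 127 and 122 TPM (1.31 ± 0.18, adjusted p = 0.000109) and Cdh1-Tg 118 and 120.0 TPM (1.25 ± 0.18, adjusted p = 0.000101). Ovol2a-Tg had 75.5 and 129.7 TPM, a difference of 0.98 ± 0.18 that was short of the threshold and passed it without the second WT library or the first Ovol2a-Tg library. In the 5 called lines Car4 kept 37.1% to 45.8% of its EpiLC level, against 16.1% in WT, and the interaction was called higher in each (1.19 to 1.49), though in none with a pseudocount of 0.1. Ovol1KO PGCLC had 94 and 86.6 TPM of Car4 (0.85 ± 0.18, adjusted p = 0.0318, not called).

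Pou3f1 was not called lower in any line. It was at 6.72 and 10 TPM in WT PGCLC, 33.7 and 35.7 in Ovol2a/2b-Tg (1.95 ± 0.26, adjusted p = 3.56e-05) and 22.1 and 23.2 in Cdh1-Tg (1.36 ± 0.26, adjusted p = 0.000667), and these were its only calls. Ovol2a-Tg (15.3 and 17.1 TPM, 0.90 ± 0.26) and Ovol2b-Tg (16.8 and 13.1 TPM, 0.78 ± 0.26) lay above WT by less than the threshold. Ovol2KO (7.68 and 5.67 TPM) overlapped WT, and TKO (10.3 and 10.9 TPM) lay just above it. All 9 lines kept at most 11.4% of their EpiLC level of Pou3f1.

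Foxd3 was close to its detection limit in WT PGCLC, so a further fall could hardly be seen. No read was found in either Ovol2KO library, against 12 over the WT group, which is at least 4.11-fold lower. That difference (-0.95 ± 0.29, adjusted p = 0.0250) and the one in Cdh1-Tg, with 1 read in each library (-0.84 ± 0.29, adjusted p = 0.0329), were short of the fold threshold, and both were called with a pseudocount of 0.5 or 0.1 and in the limma-voom fit of the recovered reads. The 2 calls for Foxd3 were rises. Ovol1KO had 5.03 and 2.98 TPM (1.35 ± 0.29, adjusted p = 0.0299), on 13 and 18 reads, and this call was lost in 7 of 14 alternatives, among them leaving out either WT library or the first Ovol1KO library. Ovol3KO had 13.7 and 20.2 TPM (3.2 ± 0.29, adjusted p = 5.91e-07), on 271 and 59 reads.

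In Ovol3KO, Foxd3 and Pim2 were below WT in EpiLC and above it in PGCLC. Its PGCLC had more Otx2, Foxd3 and Pim2 than WT PGCLC (3 of 6 genes, and 4.34% of all genes), while its EpiLC had less Foxd3, Pim2 and Fgf5 than WT EpiLC. In its PGCLC Otx2 was at 16.7 and 18.5 TPM (1.06 ± 0.26, adjusted p = 0.00351) and Pim2 at 317 and 404 TPM (1.07 ± 0.37, adjusted p = 0.0334). Both calls were lost without the first WT library and without the second Ovol3KO library, that of Otx2 also with a pseudocount of 0.1, and the Foxd3 call was not lost under any alternative run. Fgf5, at 17.6 and 18.5 TPM, lay above both WT libraries (0.95 ± 0.35, adjusted p = 0.0374) but was not called, and it was called without the second WT library, with quantile normalization and in the limma-voom fit. The median of all genes stood at -0.115 in this comparison, with 625 called higher and 1225 lower, and 866 and 933 with quantile normalization.

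From EpiLC to PGCLC, Pim2 in Ovol3KO went from 272 ± 67 to 361 ± 62 TPM (SD, n = 2) with overlapping libraries, and Foxd3 went from 8.62 ± 1.4 to 17.0 ± 4.6 TPM (0.89 ± 0.23, not called). In WT these 2 genes fell over the same step. The line's difference from WT changed between the states by 5.25 ± 0.33 for Foxd3 (adjusted p = 1.54e-14), 2.61 ± 0.37 for Pim2 (adjusted p = 1.12e-06), 2.04 ± 0.38 for Fgf5 (adjusted p = 4.86e-05) and 1.62 ± 0.28 for Pou3f1 (adjusted p = 1.41e-05). Car4 took the WT course, with 47.7 and 58.2 TPM in Ovol3KO PGCLC.

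TKO and Ovol2KO, which both had little Fgf5 and Otx2, were compared directly in PGCLC. By limma 0 of the 6 genes were called (0.985% of all genes were), 2 had an unadjusted p under 0.05 (Pou3f1 and Car4), and limma-voom on the recovered reads called 0. Fgf5, Otx2 and Foxd3, at 0.599, 0.601 and 0 TPM in Ovol2KO, were too low for a still lower level in TKO to be called. With a pseudocount of 0.1, 3 were called: Fgf5 and Otx2 lower in TKO, and Foxd3 higher in TKO. These calls rested on few reads. Fgf5 had 2 and 3 reads in Ovol2KO and 0 and 0 in TKO. Otx2 had 3 and 3 against 0 and 2, and Foxd3 had 0 and 0 against 1 and 6. The differences of TKO from Ovol2KO ran from -0.62 ± 0.35 for Fgf5 (95% interval -1.42 to 0.17) to 0.63 ± 0.18 for Car4 (0.22 to 1.05).

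Against TKO, 7 of 24 gene and line pairs were called in the transgenic PGCLC, all higher (1.86% of all genes were called higher). Ovol2a/2b-Tg had more Otx2 (1.93 ± 0.26, adjusted p = 4.62e-05), Pou3f1 (1.62 ± 0.26, adjusted p = 0.000181) and Fgf5 (1.43 ± 0.35, adjusted p = 0.00467) than TKO. Ovol2a-Tg had more Pim2 (1.53 ± 0.37), Otx2 (1.11 ± 0.26) and Fgf5 (1.09 ± 0.35, adjusted p = 0.0461), and Cdh1-Tg had more Pou3f1 (1.03 ± 0.26), a call lost with quantile normalization and without any 1 of the 4 TKO and Cdh1-Tg libraries. The 3 Ovol2a-Tg calls were each lost without its first library, which left 4 calls. Leaving out either TKO library also left 4, and leaving out the second Ovol2a-Tg library gave 9. The Ovol2a-Tg call for Fgf5 was lost in 7 of 14 alternatives, among them quantile normalization and no filter on low values. That for Pim2 was lost in 4 of 14, among them the limma-voom fit. No gene was called in Ovol2b-Tg against TKO, with differences of -0.03 ± 0.18 to 0.48 ± 0.35. TKO was the control in all of these, as WT was above, so they are not independent of one another.

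Between the 3 lines with an Ovol2 transgene, 3 of 18 pairs were called (2.83% of all genes). Ovol2a/2b-Tg PGCLC had more Pou3f1 than Ovol2a-Tg (1.05 ± 0.26, adjusted p = 0.0102) and than Ovol2b-Tg (1.17 ± 0.26, adjusted p = 0.00337), and more Otx2 than Ovol2b-Tg (1.46 ± 0.26, adjusted p = 0.000819). Without the second Ovol2a-Tg library the count was 6.

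Other genes of the formative and primed state were taken as a list of 20. In WT 15 were higher in EpiLC than in ESC (9.33% of all genes) and none lower, led by Fgf15 (46.6 against 0.292 TPM), which encodes a further growth factor, and Sox3 (91.8 against 1.81), a SOX-family factor. From EpiLC to PGCLC 11 were lower (7.62% of all genes), led by the DNA methylation cofactor Dnmt3l (84.0 to 4.76 TPM) and the chromatin factor Utf1 (1400.3 to 107), and 3 were higher, a share near that of all genes (13.5%), led by Fgf8 (0.722 to 219 TPM) and Lef1 (16.1 to 68.7), which gastrulating cells also use. In Ovol3KO EpiLC 2 were lower than WT (1.12% of all genes), Sox3 (-1.63 ± 0.11) and Zic2 (-1.18 ± 0.13). The list did not only fall in this line: Etv4 was among those higher (1.31 ± 0.14), where 1.73% of all genes were called higher.

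In PGCLC more of the list was lower than higher in TKO and Ovol2KO. In TKO 8 of 20 were lower than WT (4.95% of all genes), led by the tight junction gene Cldn6 (182 to 1.3 TPM) and Utf1 (107 to 5.37), and 2 were higher (5.58% of all genes), Fgf15 (11.6 to 60.1) and Lef1 (68.7 to 166). In Ovol2KO 10 were lower (4.07% of all genes) and the same 2 higher (4.11%). In Ovol3KO 5 were higher (4.34% of all genes), led by Dnmt3l (4.76 to 108 TPM) and Utf1 (107 to 616), and 4 lower (8.5% of all genes), led by Lef1 and Fgf8. The median log2 change of the list was -0.74 in TKO, -0.79 in Ovol2KO and -0.05 in Ovol3KO, beside 0.03, 0.04 and -0.12 over all genes.

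In WT the naive genes ran opposite to the formative genes, and in PGCLC of 5 lines most naive genes were lower along with Fgf5, Otx2 and Pim2. All 12 naive genes were lower in WT EpiLC than in ESC (11.2% of all genes), led by Klf4 (322 to 1.67 TPM) and Tbx3 (117 to 0.261), and 10 were higher again in WT PGCLC (13.5% of all genes). In PGCLC 9 were lower than WT in TKO (4.95% of all genes) and in Cdh1-Tg (4.3%), and 8 in Ovol2KO (4.07%), Ovol2b-Tg (3.14%) and Ovol2a/2b-Tg (2.95%). In Ovol2a-Tg PGCLC 1 was lower (1.33% of all genes). In Ovol3KO PGCLC 9 of 12 were higher than WT (4.34% of all genes), beside the higher Otx2, Foxd3 and Pim2. In Ovol3KO EpiLC the 12 summed to 303 and 224 TPM in the 2 libraries. The mean sum was 124 TPM in WT EpiLC and from 88.2 in Cdh1-Tg to 203 in Ovol2a-Tg among the other lines. Its part in the lower Fgf5, Foxd3 and Pim2 of Ovol3KO EpiLC was not tested.

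Close relatives of the 6 genes were measured beside them. Of 17 paralogs 11 passed the filter, and 3 were higher (9.33% of all genes) and 1 lower (11.2%) in WT EpiLC than in ESC. Fgf4, the FGF ligand of naive cells, was at 236, 146 and 13.7 TPM in WT ESC, EpiLC and PGCLC. Car2, a cytosolic carbonic anhydrase, went on rising from 45.6 TPM in WT EpiLC to 233 in PGCLC, where Car4 fell. In PGCLC of the 6 lines with low Fgf5, Car2 was lower than WT, from -1.20 ± 0.12 in Ovol2a-Tg (adjusted p = 9.15e-06) to -2.81 ± 0.12 in TKO (adjusted p = 1.02e-09), against the direction of Car4. Pim1 was higher in Ovol3KO EpiLC (465 against 189 TPM, 1.29 ± 0.14, adjusted p = 8.92e-06), where Pim2 was lower, and Pim3 differed there by 0.75 ± 0.11, short of the threshold.

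Receptors of FGF ligands were measured beside Fgf5. Fgfr1 rose from EpiLC to PGCLC in WT (50.8 to 132 TPM, 1.36 ± 0.09, adjusted p = 9.26e-15), and Fgfr3 rose from 1.07 to 4.36 TPM. Fgfr2 was called higher than WT in PGCLC of all the 6 lines with low Fgf5 and of Ovol3KO, with 1.97 TPM in WT and 8.89 in TKO. Among general pluripotency genes, Sox2 and Pou5f1 were lower than WT in PGCLC of TKO (Sox2 86.8 to 16.0 TPM, Pou5f1 1539.5 to 432), Ovol2KO, Ovol2b-Tg and Cdh1-Tg.

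For each gene the 3 tested genes with the most similar pattern over the 27 group means were found by Pearson's r of log2(TPM + 1). These are descriptions without a test, and all genes share the groups' library depth and the large steps between cell states. Fgf5 was most like Vwa2 (0.987), Mmp25 (0.979) and Pim2 (0.978), so a fellow member was among its 3 nearest. Pou3f1 was most like Plekha1 (0.981), Wt1 (0.98) and Dnmt3a (0.98), Otx2 like Pdzd4 (0.966), Phc1 (0.957) and Chd9 (0.955), and Foxd3 like Tfe3 (0.970), Zbtb8a (0.969) and Slc7a3 (0.965). Pim2 was most like Fgf5 (0.978), Vwa2 (0.967) and Nfasc (0.956), and Car4 like Myl9 (0.985), Tmem59l (0.982) and Asphd2 (0.98). Among the 6 genes themselves r ran from -0.10 for Foxd3 with Car4 to 0.98 for Fgf5 with Pim2.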

How the data were processed

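Polyadenylated RNA of 54 libraries was sequenced from directional libraries made with 12 PCR cycles, per the labels' protocols. The authors deposited 1 table of TPM values, which have the same total in each library. HISAT2, featureCounts and edgeR, and the build mm10, are named in the submitters' processing notes, while no strand setting or annotation is given in the sources used here. TPM is relative to the other transcripts of a library and does not show depth, so reads were recovered from the steps between low values, for all 17973 genes above 0. They gave 2158379 to 26728538 reads per library. Floors cover counting error only, and the intervals of fold changes are limma's, from the spread between libraries.

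Groups followed the titles. Genes with at least 1 TPM in at least 2 libraries (14416) were tested with limma 3.58.1 (trended, robust) on log2(TPM + 1), a pseudocount of 1. Lines were compared within a state over its 18 libraries (9 residual degrees of freedom), and states and interactions over all 54 (27 degrees of freedom). P-values were adjusted by Benjamini-Hochberg over all tested genes, and calls needed an adjusted p under 0.05 and a log2 fold change of 1 or more in size. A floor of 3 reads over the group gave the lower bounds. The fits were tested on simulated data. Named genes were the 6 genes, the Ovol genes and Cdh1, the 2 largest called changes in each direction of each list, and the 3 most similar genes of each member. Fgf4, Car2, Pim1, Pim3, the FGF receptors, Sox2, Pou5f1, Hand1, Elf5 and Sox10 were picked from the lists after their values were seen. The members and lists were chosen with earlier results of these data known. Alternatives were other pseudocounts, filters, normalization, moderation, libraries in the fit and call rule, a replicate block, averaging the Ovol2b-Tg EpiLC pair, leaving out each library and, added after seeing the data, limma-voom on the recovered reads.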

Additional observations from a re-analysis of the deposited data

Results flagged for a closer look

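Of 48 gene and line pairs, 31 had a difference from WT that itself differed between PGCLC and EpiLC, tested as an interaction in limma over all 54 libraries (7.63% of all genes). Values are log2 differences, PGCLC minus EpiLC, with standard errors of 0.28 for Pou3f1 and Car4, 0.33 for Otx2 and Foxd3, 0.37 for Pim2 and 0.38 for Fgf5. Fgf5 was at -2.98 in Ovol2KO, -3.77 in TKO, -2.77 in Ovol2a-Tg, -3.45 in Ovol2b-Tg, -2.45 in Ovol2a/2b-Tg, -4.24 in Cdh1-Tg and 2.04 in Ovol3KO. Otx2 was at -2.82 in Ovol2KO, -3.29 in TKO, -2.02 in Ovol2a-Tg, -2.61 in Ovol2b-Tg, -1.06 in Ovol2a/2b-Tg and -3.18 in Cdh1-Tg. Pim2 was at -3.79 in Ovol2KO, -3.78 in TKO, -1.96 in Ovol2a-Tg, -3.39 in Ovol2b-Tg, -2.58 in Ovol2a/2b-Tg, -2.30 in Cdh1-Tg and 2.61 in Ovol3KO. Car4 was at 1.19 in Ovol2KO, 1.38 in TKO, 1.40 in Ovol2b-Tg, 1.49 in Ovol2a/2b-Tg and 1.3 in Cdh1-Tg. Foxd3 was at 1.48 in Ovol1KO, -1.04 in Ovol2KO, 5.25 in Ovol3KO and -1.69 in Cdh1-Tg. Of 18 alternatives, 6 ended the Foxd3 call in Ovol1KO and 7 that in Ovol2KO, limma-voom in both, and 6 ended the Otx2 call in Ovol2a/2b-Tg. Among single libraries, the Ovol1KO call was lost without either WT EpiLC library, the second WT PGCLC, the first Ovol1KO EpiLC or the first Ovol1KO PGCLC library. The Ovol2KO call was lost without the first WT EpiLC, the first WT PGCLC, the second Ovol2KO EpiLC or either Ovol2KO PGCLC library, and with quantile normalization. All 5 Car4 calls were lost with a pseudocount of 0.1. Pou3f1 was at 1.62 in Ovol3KO and 1.81 in Ovol2a/2b-Tg. WT is the control in all of these, so they are not independent. With 2 libraries a group, no single library could be tested as standing apart.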

How the results depend on the processing

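Of 189 called results for the 6 genes, 159 were called under every alternative run, and 0 reversed (a result not called in either fit was not counted as reversed when its sign changed). The number higher than WT in ESC, 4, became 8 with a pseudocount of 0.1 or 0.5, 7 in the limma-voom fit and 10 with no fold threshold. With no fold threshold the number higher was also 14 in place of 1 in EpiLC and 17 in place of 11 in PGCLC. Calls between the Ovol2 transgenic lines were then 5 in place of 3. Without that threshold the all-gene count higher than WT in PGCLC rose in every line as well. It went from 804 to 2890 of 14416 in TKO and from 801 to 3354 in Cdh1-Tg. Such all-gene counts were not taken for the lines in ESC or EpiLC. TKO against Ovol2KO went from 0 to 3 with a pseudocount of 0.1. Leaving out 1 library at a time gave 3 to 6 higher and 3 to 5 lower in ESC, 1 to 1 higher and 2 to 3 lower in EpiLC, and 8 (without the first WT library) to 15 (without the second) higher and 17 to 18 lower in PGCLC. It gave 49 to 51 higher in EpiLC than ESC, 51 to 52 lower in PGCLC than EpiLC, 28 to 32 interactions, 4 to 9 calls against TKO, 2 to 6 between the Ovol2 transgenic lines (6 without the second Ovol2a-Tg PGCLC library), 0 to 0 for TKO against Ovol2KO, and in WT 5 to 6 for EpiLC against ESC, 6 to 6 for PGCLC against EpiLC and 5 to 5 for PGCLC against ESC. A lone library was assumed to vary like the other groups. Replicate numbers did not pair the samples (median correlation of deviations 0.01, -0.00 and -0.01 in the 3 states). With them as a block 18 of 48 pairs were lower and 11 higher than WT in PGCLC, 1 call was lost (Fgf5, Ovol2a-Tg against TKO), and the Ovol2b-Tg EpiLC pair, which carries other numbers, was dropped. Averaging that pair changed no call. Reads limit the low values: Foxd3 in WT PGCLC rests on 12 reads.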
